A study of Homo sapiens with 6 samples.

Results

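The membrane and scaffold proteins of the tight junction, other than the claudins, were followed here through 9 genes in SW480 cells with and without knockdown of the transcription factor ZEB1. The genes were taken by name from the deposited count tables: the immunoglobulin-like receptors F11R and CXADR, the MARVEL-domain proteins OCLN, MARVELD2 and MARVELD3, the ZO scaffolds TJP1 and TJP3, and the cingulins CGN and CGNL1. All 9 were among the 32029 genes listed, and 8 of them were among the 14996 genes with enough reads to be tested. SW480 is a line of human colorectal adenocarcinoma cells, so that both groups share 1 genetic background. Total RNA was sequenced from 3 cultures given the control siRNA siNC, labelled with the genotype WT, and from 3 cultures given siZEB1, 48 h after transfection. The methods of the study call these biological triplicates. The knockdown was transient, and the number and sequences of the siRNAs behind these samples were not given in the sources used here.

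Tight junctions seal the space between neighbouring epithelial cells at the apical end of their lateral membranes. Claudins form the strands. Occludin and its MARVEL-domain relatives lie within them and at the corners where cells meet, the immunoglobulin-like receptors stand beside them, and the ZO proteins and cingulins link the membrane proteins to the actin and actomyosin cytoskeleton. ZEB1 is a zinc finger repressor of epithelial genes that binds E-box sequences such as CACCTG, and the comparison asks how RNA of the junction's parts differed when ZEB1 was lowered.

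The libraries held between 19040636 and 22357633 counted reads. ZEB1 itself had 1247, 1276 and 908 reads in siNC and 136, 132 and 162 reads in siZEB1. Its log2 fold change was -2.85 with an SE of 0.11 (edgeR's quasi-likelihood test, adjusted p = 4.85e-12), so the labels and the targeted gene go together. Its relative ZEB2 had at most 1 read in any library. SNAI1, another repressor of epithelial genes, was at 17.5 ± 1.23 CPM in siNC and 17.6 ± 0.611 CPM in siZEB1 (SD, n = 3), and SNAI2 was below 1 CPM in every library. KRT8 and KRT18, keratins of simple epithelia, stood at 3455 and 1418 CPM in siNC and did not pass the test, while of the 8 colon epithelium markers tested 4 rose (CDH1, EPCAM, VIL1 and KRT19) and CDX2 fell, where 19.0% of all tested genes were called higher and 21.2% lower. The part of these marker changes in the results for the junction genes was not tested. Of the markers of other cells, those of endothelium summed to 2.13 to 2.99 CPM in siNC and 1.75 to 2.65 CPM in siZEB1, those of fibroblasts to 13.4 to 14.9 and 13.3 to 15.2 CPM, and those of leukocytes to 0.752 to 1.38 and 1.30 to 1.67 CPM. Only PDGFRB of these passed the test, at 3.98 CPM in siNC and 5.33 CPM in siZEB1. The markers within a list differed in level. COL3A1 and TEK had at most 3 and 5 reads in any library. COL1A1 stood at 10.2 CPM in siNC and 8.70 CPM in siZEB1, and PECAM1 at 1.43 and 1.29 CPM.

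In siZEB1, RNA of 6 of the 8 tested tight junction genes was higher and none was lower at an adjusted p of 0.05. Over all tested genes, 19.0% passed in the higher direction and 21.2% in the lower. The 6 genes that rose were F11R, MARVELD3, MARVELD2, OCLN, TJP3 and CGN, with log2 fold changes from 0.43 to 3.16, while CXADR and TJP1 did not pass and CGNL1 had too few reads to be tested. The same 6 genes had groups that did not overlap, where 24.3% of all tested genes had every siZEB1 culture above every siNC culture. F11R, MARVELD2 and MARVELD3, 3 of the 6, passed the test with a log2 fold change above 1, as did 2.49% of all tested genes. MARVELD3 is counted here although it met the filter on low counts only through siZEB1. The median log2 fold change was 0.82 over the 8 genes and -0.0055 over all genes tested. The genes were chosen with earlier results of these data known, so these counts and medians are descriptions and not a test of the group. Fold changes are siZEB1 over siNC, from edgeR's quasi-likelihood test (two-sided, Benjamini-Hochberg adjustment over all 14996 genes), and levels are CPM, which sets each read count relative to its library's total as corrected by TMM. These are averages over whole cultures, in which a change in the number of cells that express a gene and a change in RNA per cell cannot be told apart.

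**Figure D1:**
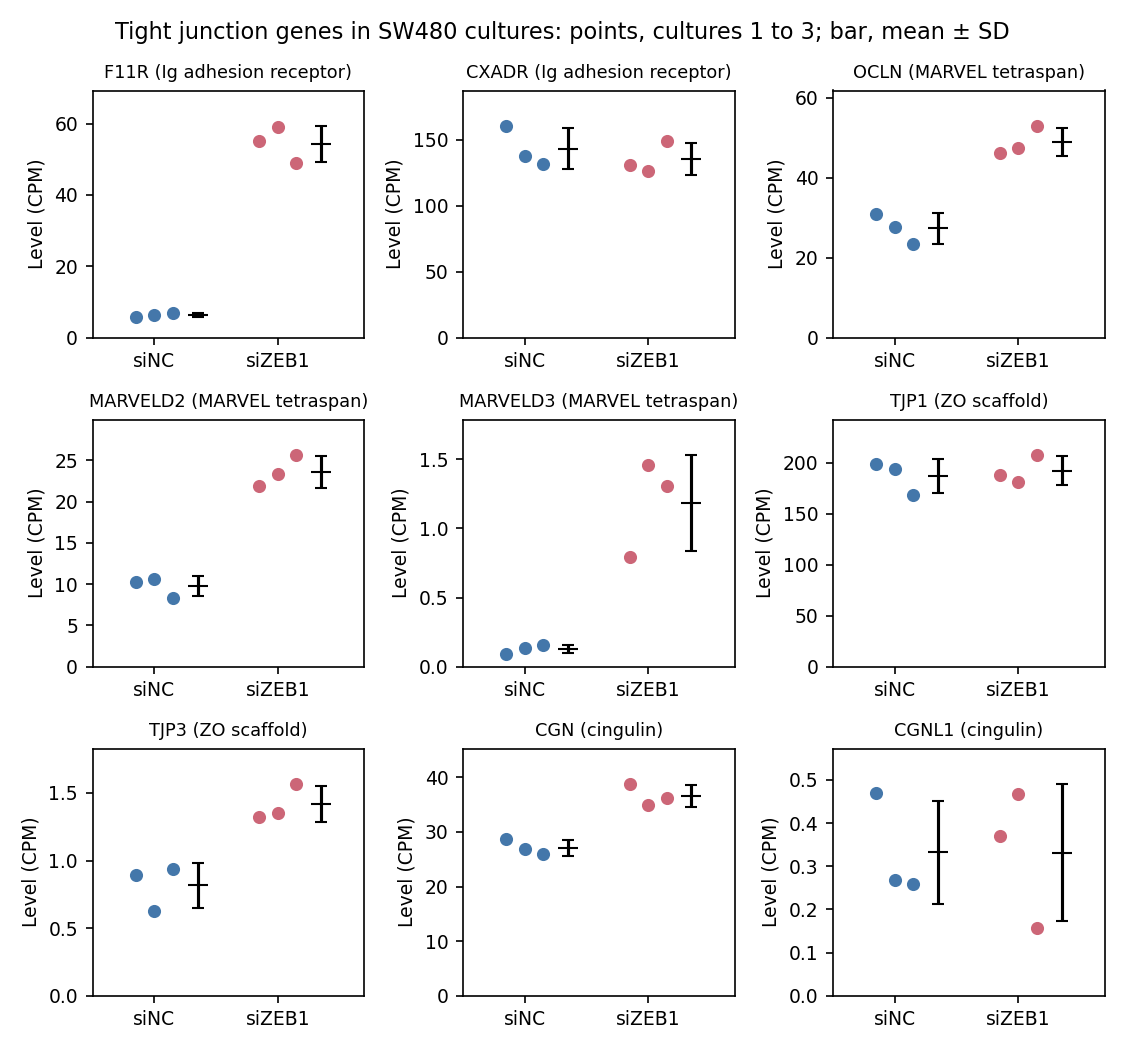
Level of each of the 9 tight junction genes (CPM, linear axis from 0, a separate scale per panel) in the 3 siNC and 3 siZEB1 cultures, with the mean and SD beside the points. The groups are separate for F11R, OCLN, MARVELD2, MARVELD3, TJP3 and CGN and overlap for CXADR, TJP1 and CGNL1.

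The immunoglobulin-like receptors differed widely in their change. F11R (ENSG00000158769, chromosome 1 from 160995211 to 161021348, minus strand, GRCh38) encodes JAM-A, an adhesion molecule that binds its like on the neighbouring cell and holds ZO and polarity proteins at the junction. It had 124, 141 and 131 reads in siNC and 1041, 1133 and 936 reads in siZEB1. Every siZEB1 culture was far above every siNC culture, and the spread within each group was small beside the gap. The level was 6.31 ± 0.482 CPM in siNC and 54.3 ± 5.06 CPM in siZEB1 (SD, n = 3), and the log2 fold change was 3.11 with an SE of 0.10 (edgeR, adjusted p = 8.97e-13), that is 8.62-fold with a 95% interval of 7.44 to 9.98. By this change F11R was number 18 from the highest of the 14996 genes. Another protein-coding gene on the same strand, AL591806.3, shares 36.6% of the exonic bases of F11R and was listed with 0 to 4 reads, so reads that a counting program could not assign to 1 gene may be missing from the level of F11R.

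CXADR (ENSG00000154639, chromosome 21 from 17512382 to 17593579, plus strand) encodes the coxsackievirus and adenovirus receptor, an adhesion protein of the same fold. It had 3410, 3085 and 2529 reads in siNC and 2463, 2422 and 2844 reads in siZEB1. The groups overlapped, at 143 ± 15.3 CPM and 135 ± 12.0 CPM (SD, n = 3). The log2 fold change of -0.084 (edgeR, SE 0.080, adjusted p = 0.431) had a 95% interval from 0.839-fold to 1.06-fold, and without siNC replicate 1 the estimate was 0.0039. For every 100 reads of CXADR in the same library there were 3.64, 4.57 and 5.18 reads of F11R in siNC and 42.3, 46.8 and 32.9 in siZEB1, a ratio in which the scaling between libraries cancels.

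The 3 MARVEL-domain genes all rose. OCLN (ENSG00000197822, chromosome 5 from 69492292 to 69558104, plus strand) encodes occludin, a protein of several membrane spans whose tail binds ZO-1. It had 658, 617 and 451 reads in siNC and 872, 913 and 1013 reads in siZEB1. The lowest siZEB1 culture lay at 46.2 CPM and the highest siNC culture at 30.9 CPM. The means were 27.3 ± 3.78 CPM and 48.9 ± 3.58 CPM (SD, n = 3), and the log2 fold change was 0.84 with an SE of 0.094 (edgeR, adjusted p = 2.13e-06).

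MARVELD2 (ENSG00000152939, chromosome 5 from 69415065 to 69444330, plus strand) encodes tricellulin, the MARVEL protein of the corners where epithelial cells meet. It had 218, 237 and 161 reads in siNC and 412, 448 and 491 reads in siZEB1, so that the groups were well apart. The level went from 9.73 ± 1.20 to 23.6 ± 1.93 CPM (SD, n = 3), and the log2 fold change was 1.27 with an SE of 0.11 (edgeR, adjusted p = 6.92e-08). MARVELD2 and OCLN are neighbours on the same strand, with 47.961 kb between the end of the first and the start of the second. Reads of MARVELD2 per 100 reads of OCLN in the same library were 33.1, 38.4 and 35.7 in siNC and 47.2, 49.1 and 48.5 in siZEB1, and these groups did not overlap.

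MARVELD3 (ENSG00000140832, chromosome 16 from 71626161 to 71642114, plus strand) encodes the remaining member of the family. It had 2, 3 and 3 reads in siNC and 15, 28 and 25 reads in siZEB1. Reads were thus few in every library, although no siNC culture reached the lowest siZEB1 culture. The level was 0.128 ± 0.0312 CPM in siNC and 1.19 ± 0.347 CPM in siZEB1 (SD, n = 3), and the log2 fold change was 3.16 with an SE of 0.47 (edgeR, adjusted p = 4.29e-05). The pooled reads, 8 against 68, gave a ratio of 9.34 with a 95% interval of 4.48 to 22.5 that covers counting error only. None of the siNC libraries and all 3 siZEB1 libraries were above the level of 0.518 CPM that the filter on low counts asks for, so MARVELD3 entered the test only through the group in which it was high and had to differ. Exons of PHLPP2 on the opposite strand, a gene with 653 to 900 reads per library, cover 16.6% of the exonic bases of MARVELD3. Whether counting used the strand was not given in the sources used here, and without it reads of the 2 genes cannot be told apart there.

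The ZO scaffolds are multi-domain proteins that hold claudins, occludin and JAM-A by their PDZ and other domains and bind actin filaments. TJP1 (ENSG00000104067, ZO-1, chromosome 15 from 29699367 to 29968865, minus strand) had 4224, 4340 and 3239 reads in siNC and 3550, 3485 and 3976 reads in siZEB1. The groups overlapped. The level was 187 ± 16.5 CPM in siNC and 192 ± 13.8 CPM in siZEB1 (SD, n = 3), and the log2 fold change of 0.042 (edgeR, SE 0.072, adjusted p = 0.68) had a 95% interval from 0.926-fold to 1.14-fold. Its sign turned when siNC replicate 3 (-0.031) or siZEB1 replicate 3 (-0.016) was left out.

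TJP3 (ENSG00000105289, ZO-3, chromosome 19 from 3708109 to 3750813, plus strand), a scaffold found mainly in epithelia, had 19, 14 and 18 reads in siNC and 25, 26 and 30 reads in siZEB1. The groups did not overlap, but they were separated by few reads. The level was 0.817 ± 0.168 CPM in siNC and 1.41 ± 0.133 CPM in siZEB1 (SD, n = 3), and the log2 fold change was 0.80 with an SE of 0.29 (edgeR, adjusted p = 0.0373). The ratio of pooled reads, 51 against 81 before scaling, was 1.75 with a 95% counting interval of 1.22 to 2.53. This call was the least firm of the 6: DESeq2's Wald test gave an adjusted p of 0.0939, edgeR without a filter on low counts gave 0.0665, and leaving out 1 culture ended the call in all cases but siNC replicate 3, with an adjusted p of up to 0.157 without siNC replicate 2. Over its 12 alternatives the adjusted p ran from 0.0215 to 0.157.

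The cingulins lie on the cytoplasmic face of the junction and bind ZO-1, myosin and regulators of small GTPases. CGN (ENSG00000143375, cingulin, chromosome 1 from 151510510 to 151538692, plus strand) had 611, 600 and 499 reads in siNC and 733, 671 and 694 reads in siZEB1. After scaling, the siNC cultures lay between 25.9 and 28.7 CPM and the siZEB1 cultures between 34.9 and 38.8 CPM, so the groups were separate by a modest gap. The log2 fold change was 0.43 (SE 0.079, adjusted p = 0.000305, edgeR), or 1.35-fold with a 95% interval of 1.20 to 1.52, the smallest of the 6 rises. It was below the fold of 1.5 that the study asks for. At a fold above 1.5 and an unadjusted p under 0.05, a rule that 7.21% of all tested genes met in the higher and 9.35% in the lower direction, 5 of the 8 genes were higher and none was lower. CGN was the called gene that missed it. The methods of the study also name a stricter limit on p. TJP3 would miss that limit, with an unadjusted p of 0.0141 from edgeR's quasi-likelihood test.

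CGNL1 (ENSG00000128849, paracingulin, chromosome 15 from 57375967 to 57550727, plus strand) also sits at adherens junctions. It had 10, 6 and 5 reads in siNC and 7, 9 and 3 reads in siZEB1 and fell below the filter. The groups overlapped throughout, and the ratio of pooled reads was 0.995 with a 95% counting interval of 0.506 to 1.94. The interval covers counting error only and is not a limit of detection. Within it, a change of CGNL1 could not be told from none at this depth. In a fit without the filter its log2 fold change was -0.010 (adjusted p = 0.989, edgeR).

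To compare the genes with each other, levels were divided by the length of each gene's merged exons (CPM per kb). In siNC the order was CXADR at 21.4, TJP1 at 16.6, CGN at 4.10, OCLN at 4.04, MARVELD2 at 1.81, F11R at 1.25, TJP3 at 0.194, CGNL1 at 0.0384 and MARVELD3 at 0.0198 CPM per kb. CGN and OCLN overlapped there, and no other neighbours in the order did. Overlap compares the 3 cultures of a group only. An error in the length used for a gene is the same in every culture, so overlap does not cover it. Its part in the order was not tested. In siZEB1 the order was CXADR at 20.2, TJP1 at 17.1, F11R at 10.7, OCLN at 7.23, CGN at 5.54, MARVELD2 at 4.40, TJP3 at 0.335, MARVELD3 at 0.184 and CGNL1 at 0.0383 CPM per kb, and no neighbours overlapped. CXADR and TJP1 thus led both groups, F11R moved from place 6 to place 3, and MARVELD3 and CGNL1 changed places at the bottom. That last exchange rests on few reads, in siNC 2, 3 and 3 of MARVELD3 and 10, 6 and 5 of CGNL1. MARVELD3 also shares exonic bases with PHLPP2. The length of F11R includes the 36.6% of its exonic bases shared with AL591806.3, where reads may be missing. Its level per kb may thus be too low in both groups. How far its place and its gaps to neighbours depend on this was not tested.

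**Figure D2:**
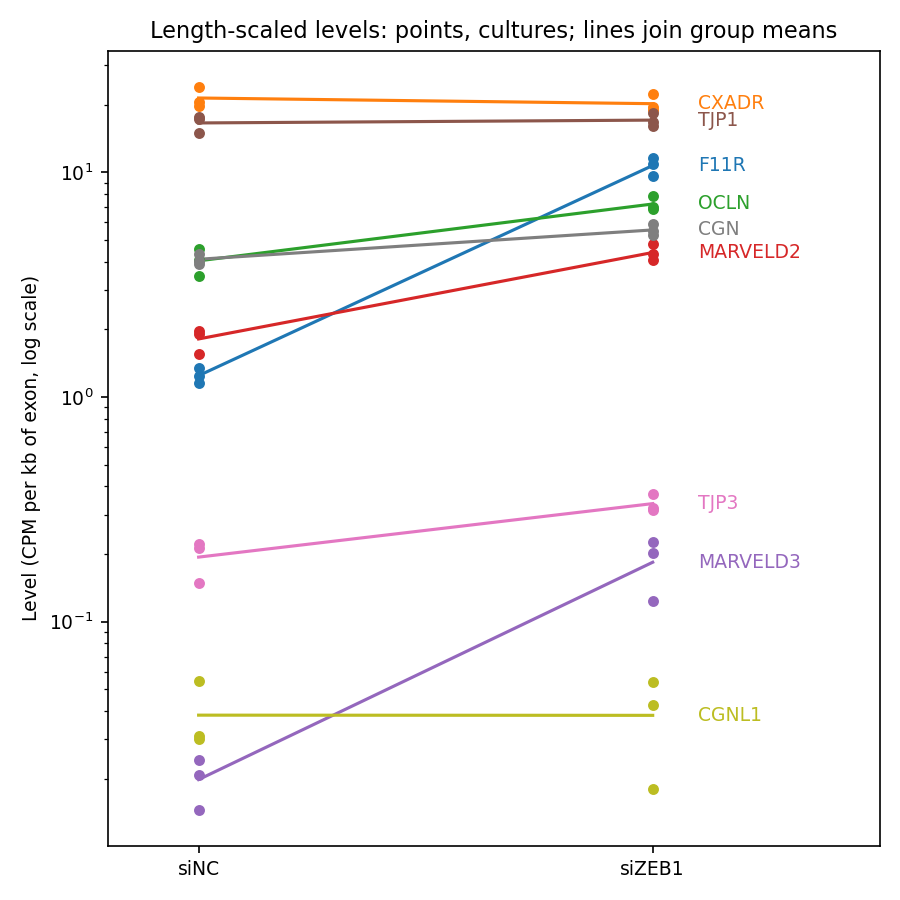
Length-scaled level (CPM per kb of merged exon, log axis) of the 9 tight junction genes, with a point per culture and lines between the means of siNC and siZEB1. CXADR and TJP1 stay on top, while F11R crosses OCLN, CGN and MARVELD2, from 1.25 to 10.7 CPM per kb. The level of F11R may be too low, because another gene shares part of its exons.

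Within the 5 membrane proteins, the makeup of the RNA was altered. Their summed level was 28.5 ± 2.87 CPM per kb in siNC and 42.7 ± 1.73 CPM per kb in siZEB1 (SD, n = 3). CXADR made up 75.0% ± 1.07 of it in siNC and 47.2% ± 2.47 in siZEB1, although its own level did not pass the test. The share of F11R was 4.41% ± 0.760 and 25.2% ± 3.17 (SD, n = 3), that of OCLN 14.1% and 16.9%, that of MARVELD2 6.36% and 10.3%, and that of MARVELD3 0.0711% and 0.429%. The exonic bases that F11R shares with another gene limit these shares as well. Of the cingulin RNA, CGN held 99.1% ± 0.275 in siNC and 99.3% ± 0.344 in siZEB1 (SD, n = 3).

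Ratios of reads within a library were taken for 6 pairs, since they do not depend on scaling. They are given as a description with no test, because each sets a gene that was called higher against one with a smaller or no called change, and MARVELD3 met the filter only through siZEB1. Reads of OCLN per 100 reads of TJP1 were 14.6 ± 0.882 in siNC and 25.4 ± 0.819 in siZEB1 (SD, n = 3). For CGN the values were 14.6 ± 0.795 and 19.1 ± 1.60 per 100 reads of TJP1, and for TJP3 they were 0.443 ± 0.117 and 0.735 ± 0.0269. MARVELD3 gave 0.485 ± 0.181 reads in siNC and 2.42 ± 0.675 reads in siZEB1 per 100 reads of OCLN. The other pairs, F11R with CXADR and MARVELD2 with OCLN, are given above.

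The cultures of a group were not equally alike for all genes. In siNC, replicate 3 was the lowest of its group for CXADR, OCLN, MARVELD2, TJP1 and CGN, and in siZEB1 replicate 3 was the highest for CXADR, OCLN, MARVELD2, TJP1 and TJP3, and the lowest for F11R. The deviations of OCLN from its group means on the log2 scale, for example, were -0.21 in the first of these cultures and 0.12 in the second. Without siNC replicate 3 the log2 fold change of OCLN was 0.74 and without siZEB1 replicate 3 it was 0.78, and for MARVELD2 these values were 1.18 and 1.21. Over 14878 genes, deviations from the group mean followed exonic length, with a Spearman correlation of -0.253 in siNC replicate 3 and 0.246 in siZEB1 replicate 3. In siZEB1 replicates 1 and 2 it was -0.0856 and -0.245, and in siNC replicates 1 and 2 it was 0.147 and 0.152. Each of these is a correlation across genes that share a library, and its part in the levels of the tight junction genes was not tested. The median log2 fold change was 0.017 and -0.033 in the shortest and longest of 4 equal classes of genes by exonic length.

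Likeness was measured as the Euclidean distance between the log2 CPM of the 6 cultures, each gene centred on its own mean. To the mean profile of the 8 tested genes, the nearest of the other tested genes were VOPP1 (0.123), ARRDC3 (0.125), PKP3 (0.155), SDC4 (0.156) and MPZL2 (0.160). After VOPP1 and ARRDC3 came the desmosomal plaque protein PKP3, the cell surface heparan sulfate proteoglycan SDC4 and the epithelial adhesion protein MPZL2. The log2 fold changes of these neighbours, VOPP1 and ARRDC3 included, lay between 1.04 and 1.14. Those of the single tight junction genes behind the mean profile ran from -0.084 to 3.16. Among the tight junction genes themselves the nearest to CXADR was TJP1, at 0.207, the nearest to OCLN was MARVELD2, at 0.548, and the nearest to F11R was MARVELD3, at 0.995. Many genes outside the group lay closer still, 465 to CXADR, 689 to OCLN and 16 to F11R.

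E-box letters near the start sites were read from RefSeq promoter windows (GRCh38.p14, 250 bases before to 50 bases after a start), and the stretches around them are shown because ZEB1 binds this motif. Windows were given for 6 of the 9 genes, 11 windows in all, and not for F11R, CXADR and MARVELD3. CACCTG or its reverse complement CAGGTG occurred in 4 windows of 3 genes, and in 20.6% of the 35116 windows of all genes. CAGGTA or its reverse complement TACCTG occurred in none of the 11 windows and in 9.83% of all windows. The 5 matches read CAGGTG on the strand of the gene and are given with up to 12 bases on either side, 5′ to 3′, with the motif in capitals.
OCLN, 33 bases before a start, chr5:69492502-69492531, plus strand, within an annotated exon: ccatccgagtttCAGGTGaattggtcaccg
OCLN, 133 bases before another start, chr5:69492645-69492674, plus strand, with 3 of the 6 motif bases in an exon: tctaggacgcagCAGGTGggactcgcggcg
OCLN, 35 bases after that start, chr5:69492813-69492839, plus strand, within an exon: tcggtgcggcgtCAGGTGcgcccgcca
TJP1, 88 bases before a start, chr15:29969120-29969149, minus strand, outside its annotated exons: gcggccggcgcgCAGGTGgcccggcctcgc
TJP3, 7 bases before a start, chr19:3721718-3721747, plus strand, within an exon: gaggaagaggggCAGGTGcagccgggagct

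The genes with the motif in a window thus included OCLN and TJP3, which passed the test, and TJP1, which did not. The match of TJP1 lay in only 1 of its windows. The start of that window, at 29969049, lies outside TJP1 as annotated in GENCODE 29, where the gene, on the minus strand, begins at 29968865. MARVELD2 and CGN rose and had no match in their windows. A match is only a run of letters, and binding of ZEB1 was not measured in these files. Exons are those of GENCODE 29 for the same gene.

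Other genes of the junction gave a mixed picture, and the counts of called genes stand beside the 19.0% of all tested genes called higher and the 21.2% called lower. Of 10 further membrane proteins, 9 were listed, 5 were tested, 3 rose and none fell, with a median log2 fold change of 0.64. Those that rose were MPZL2 (1.14, adjusted p = 1.64e-08), LSR (1.14, adjusted p = 1.8e-09), the angulin that brings tricellulin to cell corners, and its relative ILDR2 (0.64, adjusted p = 8.21e-05), all in edgeR's test. LSR rose from 96.0 ± 6.79 to 212 ± 14.7 CPM (SD, n = 3), beside the rise of MARVELD2. JAM3, a relative of F11R, fell below the filter with 6, 11 and 12 reads in siNC and 8, 10 and 25 reads in siZEB1.

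Of 18 further plaque and adaptor proteins, 17 were listed and 16 tested, of which 5 rose and 5 fell, with a median log2 fold change of -0.077. PATJ, a polarity scaffold that binds ZO-3, rose (1.07, adjusted p = 2.04e-08), as did the PDZ scaffold MAGI3 (0.58, adjusted p = 0.000124). ARHGEF2, an exchange factor for small GTPases that cingulin holds at the junction, fell (-0.48, adjusted p = 1.6e-05), and so did MICALL2 (-0.45, adjusted p = 0.00775) and MAGI1 (-0.36, adjusted p = 0.0033), all in edgeR's test. Of 23 claudins, 17 were listed and 8 tested, of which 4 rose and none fell, with a median log2 fold change of 0.54. CLDN7 (1.12, adjusted p = 0.0317), CLDN3 (0.69, adjusted p = 0.000652) and CLDN15 (0.54, adjusted p = 8.85e-05) had the largest changes of the 4, although the groups of CLDN7 overlapped and its call was lost without siNC replicate 1 or 3 or siZEB1 replicate 1 or 3, with an adjusted p of 0.0611 to 0.198. CLDN7 had few reads, 14, 19 and 7 in siNC and 26, 14 and 39 in siZEB1. These lists of other junction genes are described by their counts of called genes, and their differences from the 9 genes were not tested.

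**Figure D3:**
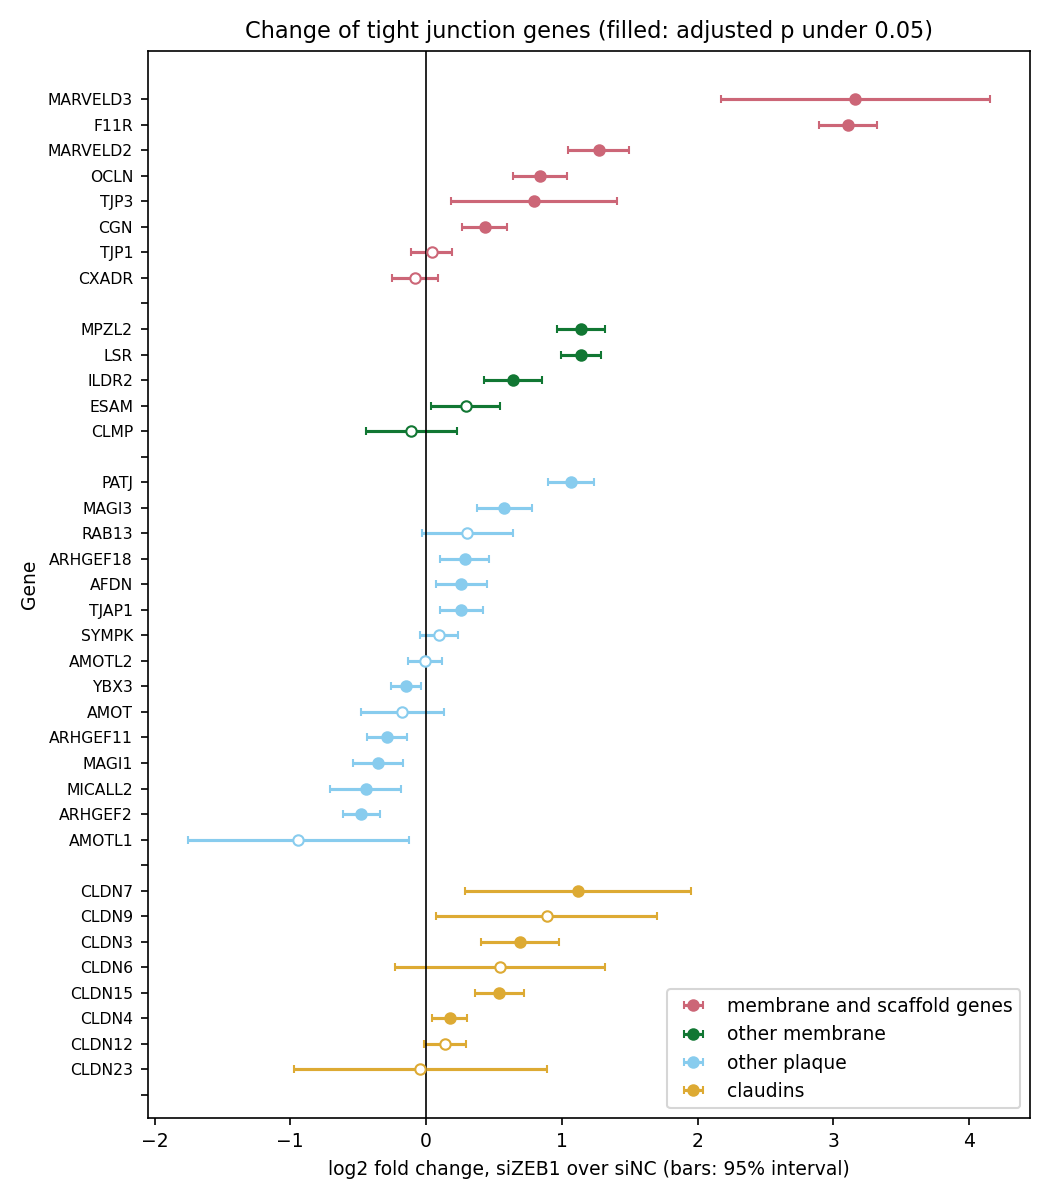
Log2 fold change, siZEB1 over siNC, of tested tight junction genes (horizontal axis). Bars are the 95% interval derived from edgeR's F statistic, before adjustment, and filled points mark an adjusted p under 0.05. Of the 8 membrane and scaffold genes 6 are filled and to the right of 0, while filled points of the other plaque genes lie on either side.

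**Figure D4:**
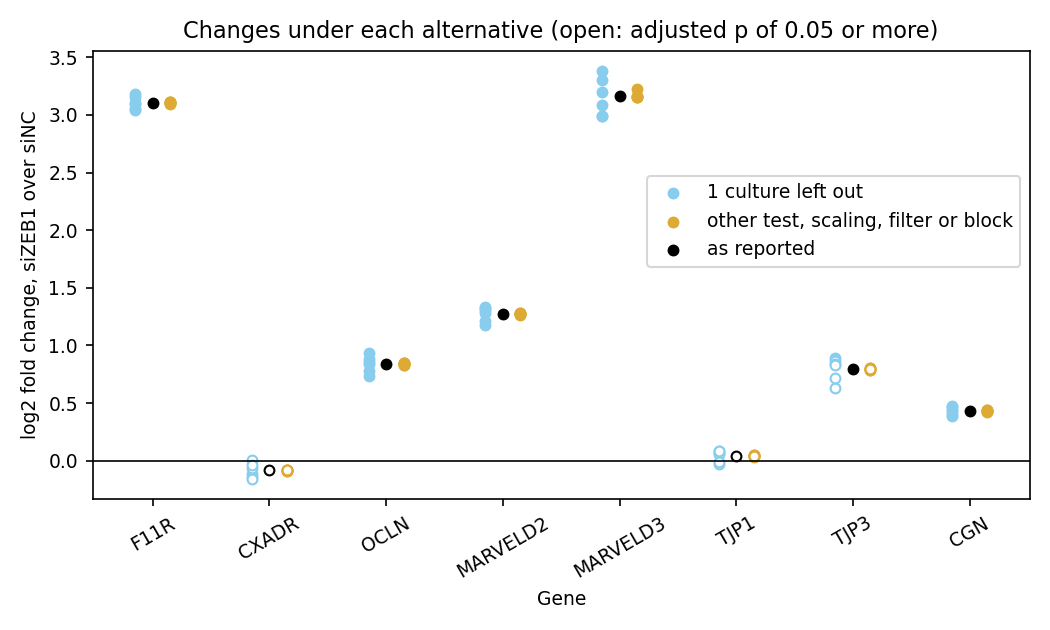
Log2 fold change of the 8 tested tight junction genes (vertical axis) as reported in black, with 1 culture left out in blue and with another test, scaling, filter or replicate block in yellow, open where the adjusted p is 0.05 or more. Open points of TJP3 stand beside filled ones, CXADR and TJP1 are open throughout and lie around 0. The other 5 genes are filled wherever they were tested. MARVELD3 met the main filter only through siZEB1, and it has no value where at least 10 reads were asked of every culture.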

How the data were processed

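The authors deposited 1 table of raw read counts per gene for each of the 6 libraries, not normalized. The submitters' processing notes name Trimmomatic, HISAT2, SAMtools and featureCounts with hg38; versions, annotation and strand setting were not given in the sources used here. The sequencer was an Illumina instrument.

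A minimum count of 10 was set in edgeR's filterByExpr, and the genes that passed were scaled by TMM and entered the quasi-likelihood test without covariates (R 4.3.3, edgeR 4.0.16, limma 3.58.1). The fit had first been run on simulated counts, in which fewer genes changed and no deviations with exonic length were built in. That run checked the code and does not measure error rates in these data. CPM uses TMM library sizes. The SE of a log2 fold change was derived as its absolute value over the square root of the test's F statistic. The 95% intervals of fold changes were built from this SE with the t distribution. The common biological coefficient of variation was 6.58%. Replicate libraries differed by 2.18 to 8.58 times the counting noise (chi-square over degrees of freedom), so none was a copy. DESeq2 1.42.0, other scalings and filters, a replicate block and each culture left out were the alternatives. Figures used matplotlib 3.10.9.

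Gene lengths, positions and overlaps are from GENCODE 29 on GRCh38. The 9 genes and the lists were chosen with earlier results of these data known. Named were all 9 genes, ZEB1, ZEB2, SNAI1 and SNAI2, from each list of other junction genes up to 4 called genes with the largest change, with JAM3, LSR and MAGI1, the 3 called claudins with the largest change, and the 5 genes nearest in profile. Listed genes without a row by that name (ILDR1, MPDZ and 6 claudins, with CDX1, CDH5, DCN and PTPRC of the markers) were not analysed here. A gene that meets the naming rule is not reported here.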

Additional observations from a re-analysis of the deposited data

How the results depend on the processing

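Over the alternatives, 84 of 95 values of the 8 tested genes kept their direction and their side of the threshold. MARVELD3, which met the main filter only through siZEB1 and so had to differ, gave 11 of the values that were kept. It was not tested where at least 10 reads were asked of every culture. The 8 lost calls were all of TJP3, and the 3 changes of sign were of CXADR (0.0039 at the highest and -0.16 at the lowest with 1 culture left out) and TJP1 (-0.031 to 0.086), neither of which was called. SNAI1, also not called, ran from -0.036 to 0.063. With the replicate number as a block, TJP3 had an adjusted p of 0.0613 and 5 of the 8 genes were called. The labels do not say whether cultures of the same number were paired. Correlations of same-numbered deviations were -0.0517, -0.0883 and -0.200. They cannot decide this, because the deviations also followed exonic length. Over all genes the block gave 2289 higher and 2679 lower calls in place of 2849 and 3186. At a fold above 1.5 and an unadjusted p under 0.05, 1081 genes were higher and 1402 lower, and of the other plaque genes 1 was higher and 1 lower. With 1 culture left out, 3 (siNC replicate 2) to 5 of the other plaque genes and 2 (siNC replicate 1 or siZEB1 replicate 1) to 4 claudins were called higher. No scaling moved the median of all genes by more than 0.1 (log2). Depth limits MARVELD3, TJP3 and CGNL1, with at most 30 reads in any library. It also limits CLDN7, with at most 39 reads in any library.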
